A study of Bos taurus with 4 samples.

Results

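The sequences described here are the long piRNA cluster sequences of bovine oocytes, those of 28 to 36 nt. A sequence was taken when every name the deposited annotation gave it was that of a piRNA cluster, when it was 28 to 36 nt long and when it held no undetermined base. There were 261723 such sequences over 4 libraries, of 2211311 piRNA cluster sequences and of 2460306 listed sequences of any class. The other 1949588 cluster sequences were 18 to 27 nt long.

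Small RNA was sequenced from oocytes of cattle (Bos taurus) at the GV stage, the germinal vesicle stage before meiotic maturation resumes. The samples were RNA recovered with an antibody against TDRKH (2 libraries, TDRKH IP) and oocyte RNA taken without an antibody (2 libraries, input). The design asks which small RNAs are recovered with TDRKH. No precipitation with a control antibody was analysed here, so RNA held by TDRKH and RNA that stays on the beads cannot be told apart. Whether both libraries of a group had their own pool of oocytes is not in the labels. The p-values therefore cover only the spread of these libraries, which may be technical.

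piRNAs are small RNAs that guide PIWI proteins, and in germ cells they are cut from long transcripts of genomic clusters. A piRNA precursor commonly carries a 5′ U, and its 3′ end is shortened by an exonuclease until the PIWI protein covers it. TDRKH has tudor domains, with which it holds PIWI proteins, and in mouse and silkworm germ cells it brings them together with that exonuclease. PIWIL3 is a PIWI protein that mice lack and that is expressed in oocytes of other mammals. U is written as T below, as in the deposited sequences.

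The TDRKH IP libraries held 1164992 and 1113070 reads of these sequences, against 91286 and 122702 in the inputs. They made up 10.8% and 10.4% of the piRNA cluster reads in TDRKH IP, and 9.55% and 10.3% in input, so the groups all but met. Of the 261723 sequences, 188893 were seen in 1 library only. The 7711 seen in all 4 held 70.0% and 69.0% of the long reads in TDRKH IP and 67.1% and 68.7% in input. The IP libraries were far deeper, with 11138905 and 11060320 listed reads against 1079364 and 1354003, and depth therefore moves with the group in every comparison below.

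The most abundant sequence of each single length is shown first, because together they hold the main features of the class: a T at the 5′ end, varied 3′ ends and, from 30 nt on, an inverted repeat near the 3′ end in some. They are named by length and a letter. Capitals mark the arms of a perfect inverted repeat of at least 5 pairs found within the last 24 bases, and a sequence in lower case has none.

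L28a: tgttctggactaggctttggcttaaggg
L29a: tgcaacaagaggaaccaccacaataagaa
L30a: tttcatggctgtagTCACCacctGGTGAgt
L31a: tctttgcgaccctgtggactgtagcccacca
L32a: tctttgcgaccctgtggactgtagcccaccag
L33a: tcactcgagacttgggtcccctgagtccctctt
L34a: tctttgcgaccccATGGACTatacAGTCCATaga
L35a: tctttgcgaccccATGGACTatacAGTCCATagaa
L36a: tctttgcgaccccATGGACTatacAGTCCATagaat

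L28a, L30a and L33a belonged to 1 piRNA locus on chromosome 6, chr6:110174004-110336024, and L29a to chr17:62734026-62887012. The genome build behind these coordinates was not given in the sources used here, and no annotation of genes was set beside them. L31a was assigned to 10 loci and L32a to 11. Every name of L31a carried the note of a mismatch, while L32a also had a name without such a note. L34a, L35a and L36a share their 5′ end and were assigned to the same 4 loci, on chromosomes 3, 6, 7 and 10, each time with the note of a mismatch (32G->A, reference base, position from the 5′ end of the read, read base). Their cluster of origin is thus not settled by the annotation.

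Most long reads were only just long. In TDRKH IP 53.5% and 54.7% of them were 28 nt, against 51.7% and 51.9% in input. Reads of 29 nt were 21.6% in both TDRKH IP libraries, against 21.2% and 21.5% in input. Reads of 30 nt were 10.9% and 10.6% in TDRKH IP, against 11.9% and 11.4% in input. The share went on falling with each added base, to 1.79% and 1.52% at 34 nt in TDRKH IP, against 2.30% and 2.02% in input, and to 0.384% and 0.403% at 36 nt, against 0.466% and 0.573%. The groups overlapped at 32 nt. At the other lengths they did not, with TDRKH IP above input at 28 and 29 nt and below it at 30, 31 and 33 to 36 nt (exact permutation p = 0.33 each, the smallest that 2 against 2 libraries allow).

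Set against all listed reads, the 28 nt cluster sequences reached 55939 and 55074 RPM (reads per 1000000 listed reads) in TDRKH IP, against 43757 and 47068 RPM in input. This was a log2 difference of 0.29 ± 0.046 (SE; edgeR quasi-likelihood test, adjusted p = 3.11e-08). Those of 29 nt reached 22588 and 21711 RPM in TDRKH IP, against 17932 and 19496 RPM in input, a log2 difference of 0.24 ± 0.059 (adjusted p = 0.000132, edgeR). Both IP libraries stood above both inputs at these lengths. The rise was not particular to long reads. Cluster reads of 18 to 25 nt and of 27 nt were also higher in TDRKH IP by the same test. Their log2 differences ran from 0.56 at 20 nt to 0.082 at 25 nt, and the 26 nt reads did not pass (-0.061).

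At 34 nt the values were 1868 and 1528 RPM in TDRKH IP, against 1947 and 1831 RPM in input, and the groups overlapped. The estimates at 30 to 32 nt lay between 0.12 and 0.23 and those at 33 to 36 nt between -0.18 and -0.048, and none of these 7 lengths passed the threshold of 0.05. Thus 2 of the 9 long lengths were higher in TDRKH IP, beside 28.9% of the 38 combinations of length and RNA class that were tested. No long length was lower, beside 50.0% of those combinations. These pooled shares are not a like background for the long cluster reads, because all the lower combinations lay in other RNA classes. No length was lower at an unadjusted p of 0.05 or with DESeq2 either, but without input 1 the 36 nt reads were (-0.36). The 29 nt call was lost without input 1 and with cluster reads as the library size.

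All long cluster reads summed were higher in TDRKH IP by 0.23 ± 0.045 on the log2 scale (adjusted p = 0.000285, edgeR). The sum without the 28 nt reads was higher by 0.16 (adjusted p = 0.0145), and that without 28 and 29 nt reads by 0.088 (adjusted p = 0.208). Relative to cluster reads alone the difference of the whole sum was 0.092 (adjusted p = 0.0419). Without input 1 the adjusted p of the sum was 0.0525. The size depends on the scaling, with 0.42 under TMM factors and 1.48 under DESeq2's own size factors.

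Most long reads began with T, the DNA letter of the 5′ U that marks primary piRNAs. T was the first base of 89.0% and 88.6% of the long reads in TDRKH IP, against 88.3% and 89.1% in input, and the groups overlapped (means 88.8% ± 0.28 and 88.7% ± 0.52, SD, n = 2 each, exact two-sided permutation p = 1.0). The share held at every single length. It was lowest in the 36 nt reads of input 2, at 80.8%, and highest in the 34 nt reads of TDRKH IP 1, at 91.3%. The 18 to 27 nt cluster reads began with T in 88.6% and 87.7% in TDRKH IP and 87.6% and 88.4% in input. The long reads exceeded them in 4 of 4 libraries by a mean of 0.65 ± 0.19 percentage points (SD, n = 4, exact sign-flip permutation p = 0.125, adjusted over 3 tests 0.125), the smallest p that 4 libraries allow. Beside the 24 to 27 nt reads alone the excess all but vanished in input, at 88.32% against 88.28% and 89.06% against 89.03%. In TDRKH IP the long reads had 88.97% and 88.57%, against 88.58% and 87.83% at 24 to 27 nt.

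An A at position 10 is the mark of secondary piRNAs made by the ping-pong cycle, where a guide with a 5′ U pairs with the RNA that is cut. It was found in 40.5% and 39.9% of the long reads in TDRKH IP, against 39.0% and 40.6% in input, again with overlap (exact permutation p = 1.0). It was less common than in the 18 to 27 nt reads in 4 of 4 libraries, by a mean of -1.54 ± 0.88 percentage points (SD, n = 4, exact sign-flip permutation p = 0.125). Of the reads without a 5′ T, 42.4% and 42.7% had it in TDRKH IP and 40.6% and 40.9% in input. Of those with a 5′ T, 40.2% and 39.5% had it in TDRKH IP and 38.8% and 40.5% in input.

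The share with A at position 10 differed strongly between lengths in all 4 libraries, though not to the same extent. Both IPs lay below both inputs at 33 nt and above both at 34 nt. At 28 nt it was 43.4% and 42.4% in TDRKH IP and 42.5% and 42.7% in input. At 33 nt it was 45.8% and 46.6% in TDRKH IP, against 53.1% and 53.2% in input. At 34 nt it was 17.0% and 18.3% in TDRKH IP, against 12.1% and 12.5% in input. L33a, the most abundant 33 nt sequence, has the A. It had 342 and 347 RPM in TDRKH IP, against 394 and 535 RPM in input. Its part in the 33 nt shares was not tested. The reads that begin like L34a alone held 34.7% and 34.2% of the 34 to 36 nt reads in TDRKH IP and 35.5% and 36.1% in input. With each of the 100 leading families of a range counted once, 25 had the A at 34 to 36 nt, beside 38 at 30 to 33 nt and 57 at 28 to 29 nt. A family here shares its first 18 bases exactly, so near copies count separately.

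The 3′ ends changed with length. An A was the last base of 65.2% and 66.7% of the 28 nt reads in TDRKH IP, against 57.5% and 61.4% in input. At 29 nt it ended 61.8% and 63.5% in TDRKH IP, against 57.8% and 60.7% in input. The groups did not overlap at either length, but the exact permutation test cannot go below p = 0.33 here. The 18 to 27 nt reads together ended in A in 36.7% in both TDRKH IP libraries, against 32.1% and 33.4% in input. The rise began below 28 nt: at 26 nt an A ended 41.5% and 41.7% in TDRKH IP, against 33.8% and 35.6% in input, and at 27 nt 58.7% and 59.3%, against 53.5% and 55.5%. The A end was thus shared with the longest of the shorter reads.

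Above 29 nt the A end was less common again. At 30 nt it was found in 31.8% and 34.4% of the reads in TDRKH IP, against 27.97% and 29.9% in input, and at 33 nt in 18.8% and 20.3%, against 13.2% and 15.8%. At 34 and 35 nt, where L34a and L35a both end in A, it lay between 43.6% and 60.8% in the 4 libraries.

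Runs of A followed the same course. Reads of 28 nt ended in AAA in 24.5% and 26.2% in TDRKH IP, against 19.8% and 22.4% in input. Those of 27 nt did so in 12.9% and 13.8% in TDRKH IP, against 10.6% and 12.2% in input, and all of 18 to 27 nt in 4.34% and 4.66%, against 3.34% and 3.88%. At 33 to 36 nt no library exceeded 2.05%. The A ends were looked at after the sequences had been seen, so their difference between lengths was not tested.

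Abundant 28 nt sequences came as pairs that differ in the last bases. L28a and L28c share all but their last base, and L28b and L28d likewise, and both pairs are shown to set an A end beside another 3′ end of the same sequence. The capital marks a 3′ terminal A.

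L28a: tgttctggactaggctttggcttaaggg
L28c: tgttctggactaggctttggcttaaggA
L28b: tctgacatcggttgctctgcttcaatcc
L28d: tctgacatcggttgctctgcttcaatcA

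L28a had 1404 and 1254 RPM in TDRKH IP, against 1180 and 1371 RPM in input, and the groups overlapped (log2 difference 0.059 ± 0.21, adjusted p = 0.808, edgeR). L28c, with the A, had 1038 and 998 RPM in TDRKH IP, against 621 and 743 RPM in input. Both IP values of L28c were above both inputs, and the log2 difference of 0.58 ± 0.21 passed the test (adjusted p = 0.0205, edgeR). With either IP left out it no longer passed, and with TMM factors it was -0.10.

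The chromosome 17 pair passed no test. L28b had 952 and 939 RPM in TDRKH IP, against 940 and 1309 RPM in input (log2 difference -0.25, adjusted p = 0.300, edgeR). L28d, with the A, had 745 and 744 RPM in TDRKH IP, against 676 and 984 RPM in input (-0.16, adjusted p = 0.522). In both cases the IP values lay between or beside the inputs and the groups overlapped. The annotation never notes a mismatch in the last 2 bases of a read, so whether a final A is encoded in the cluster or added to the RNA cannot be told apart from these files.

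Long reads mostly had shorter relatives with the same 5′ end. In TDRKH IP 94.1% of the long reads in each library had a form of 18 to 27 nt with an identical start in the same library, against 76.6% and 81.4% in input (exact permutation p = 0.33, the smallest possible). Depth moves with this value: after each library had been thinned to 955437 cluster reads the shares were 85.7% and 85.9% in TDRKH IP, against 76.6% and 80.7% in input. The share of reads whose names all carry a note of a mismatch moves with it too, at 26.2% and 26.3% of the long reads in TDRKH IP against 45.0% and 38.6% in input. Its part in the result was not tested. The same notes marked 26.0% and 26.1% of the 18 to 27 nt reads in TDRKH IP, against 48.9% and 41.4% in input.

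For each long read that had such a shorter form there were 5.97 and 6.09 reads of these forms in TDRKH IP, against 5.42 and 5.31 in input. Long reads without a shorter form are left out of this ratio. At equal depth the values were 5.10 and 5.23 in TDRKH IP, against 5.42 and 5.19 in input, so the groups then overlapped.

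Grouping all cluster sequences by their first 18 bases gave families that share a 5′ end. A family was sorted by its most abundant length, with RPM summed over the 4 libraries. Families for which this was 28 nt or more held 49.1% and 47.8% of the long reads in TDRKH IP, against 54.5% and 50.9% in input. The share depended on length. It was 35.8% and 34.9% of the 28 nt reads in TDRKH IP, against 42.7% and 38.7% in input, and 86.1% and 85.2% of the 34 nt reads, against 84.6% and 85.4%. Most reads of 28 nt therefore belonged to families whose peak was at 27 nt or less, and most reads of 34 nt to families whose peak was at 28 nt or more. Such a peak does not make most of a family long: 48.8% and 46.2% of the reads of L34a's family were long in TDRKH IP, against 61.7% and 54.6% in input, and 35.9% and 31.2% of L30a's, against 47.0% and 32.8%.

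The A end was more common where the peak was at 27 nt or less. In those families 68.0% and 70.6% of the long reads ended in A in TDRKH IP, against 61.9% and 65.0% in input. In families with a peak at 28 nt or more, 44.1% and 45.0% did so in TDRKH IP, against 40.7% and 42.6% in input. Length moves with the kind of family, and at 34 to 36 nt the order was turned round in TDRKH IP. There 40.4% and 39.4% ended in A in families with the shorter peak in TDRKH IP, against 58.6% and 49.4% in input, and 42.9% and 41.4% in those with the longer peak, against 42.7% and 41.3%.

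Several families had 2 separate peaks of length. In the family of L34a, 18.3% and 19.1% of the reads were 26 nt in TDRKH IP, against 15.4% and 17.7% in input. Only 0.534% and 0.594% were 29 nt in TDRKH IP, against 0.256% and 0.426% in input. A further 15.9% and 13.4% were 34 nt in TDRKH IP, against 23.7% and 19.7% in input. In the family of L30a, 28.3% and 28.5% of the reads were 27 nt in TDRKH IP, against 25.9% and 30.9% in input. At 28 nt the family all but vanished, with 0.418% and 0.462% in TDRKH IP against 0.403% and 0.408% in input. It then returned at 30 nt with 28.4% and 24.3% in TDRKH IP, against 40.8% and 29.1% in input. The family of L31a and L32a peaked at 26 nt, with 41.7% and 41.0% in TDRKH IP against 45.2% and 42.3% in input, and again at 31 nt, with 9.02% and 9.16% against 11.9% and 13.5%. The first 18 bases of L34a's family and of that of L31a and L32a are much alike, so these need not be separate cases. In these 3 families the single length at the top of the second peak took a smaller part of the reads in both IPs than in both inputs. This need not hold for the neighbouring lengths. L32a, at 32 nt, had 566 and 485 RPM in TDRKH IP, against 269 and 343 RPM in input. Its whole family had 9586 and 8818 RPM in TDRKH IP, against 6579 and 7660 RPM in input.

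L29a's family had a second, smaller peak without such a gap. At 24 nt it held 15.3% and 16.1% of its reads in TDRKH IP, against 17.1% and 15.5% in input, and at 26 nt 10.2% and 9.92%, against 8.13% and 9.33%. At 28 nt it held 20.2% and 18.9% in TDRKH IP, against 22.1% and 22.4% in input. L28a's family was most abundant at the neighbouring lengths 27 and 28 nt, with 30.1% and 29.5% of its reads at 27 nt in TDRKH IP and 42.2% and 36.2% in input. At 28 nt it had 34.6% and 33.8% in TDRKH IP, against 32.5% and 36.96% in input. It held 14.5% and 13.1% at 29 nt in TDRKH IP, against 9.80% and 11.6% in input, and almost nothing beyond.

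The longest reads shared a further feature: an inverted repeat whose arms can pair, close to the 3′ end. A repeat was counted when at least 6 bases were perfectly complementary, with 3 to 10 bases between the arms, within the last 24 bases, so that every length was searched over the same window. It was searched for after L34a had been seen, and no test was made of it.

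The repeat was found in 0.511% and 0.515% of the 28 nt reads in TDRKH IP, against 0.633% and 0.411% in input. At 31 nt it was found in 8.38% and 7.61% in TDRKH IP, against 8.97% and 7.32% in input, and at 33 nt in 28.3% and 26.3%, against 26.4% and 19.3%. At 34 nt it was present in 78.5% and 77.3% of the reads in TDRKH IP, against 73.0% and 72.7% in input. At 36 nt it was present in 81.7% and 82.3% in TDRKH IP, against 69.9% and 70.7% in input. The share went up with each length to 34 nt in all 4 libraries. Beyond 34 nt it went on rising in both TDRKH IP libraries, while both inputs were lower at 36 nt than at 34 nt. At 34, 35 and 36 nt each TDRKH IP library stood above both inputs, a difference for which the exact permutation p is 0.33, the smallest possible.

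L34a's family did not carry this alone. Without it, 69.3% and 69.2% of the 34 to 36 nt reads in TDRKH IP had the repeat, against 60.5% and 59.4% in input. Counting each distinct sequence of 34 nt once, 39.3% and 40.1% had it in TDRKH IP, against 44.6% and 39.5% in input, and at 28 nt between 0.766% and 0.976% did. Among the 100 families with the most 34 to 36 nt reads, 61 had the repeat in their most abundant form of that length. The number was 8 of 100 at 30 to 33 nt, and at 28 to 29 nt and 24 to 27 nt it was 0 of 100.

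Over the 34 to 36 nt reads that had one, the median arm was 7 pairs, the first arm began at base 14, the loop was 4 bases and 3 or 4 bases followed the second arm. The search window of 24 bases leaves little room after such a repeat, so its closeness to the 3′ end is in part set by the search. Cut at 26 nt, the length of its family's shorter peak, L34a would stop within the second arm. Whether the 26 nt reads of the family match L34a beyond the shared start was not examined.

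With the looser minimum of 5 pairs the repeat was present in 5.12% and 4.91% of the 28 nt reads in TDRKH IP and 4.99% and 4.39% in input. It was present in 33.7% and 34.2% of the 30 nt reads in TDRKH IP, against 32.8% and 30.9% in input, L30a among them. L31a, L32a and L33a had no perfect repeat of 5 pairs in this window.

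Single long sequences were compared where at least 10 RPM was reached in 2 libraries. Of the 261723 sequences 1115 reached it, among 11785 of all classes. By edgeR 508 were higher in TDRKH IP, 78 were lower and 529 did not pass. Most of the lower ones differed from the reference: the names all carried a note of a mismatch in 65 of the 78. The same held for 107 of the 508 and for 295 of all 1115. The part of these mismatches in the calls was not tested. Over all 11785 sequences 41.9% were higher and 19.8% lower. For the 9909 cluster sequences of 18 to 27 nt the shares were 43.2% and 18.1%, with a median log2 difference of 0.72. Of the 1115, 278 reached the minimum only in the 2 IPs and 79 only in the 2 inputs, and such a sequence had to differ. Among the 511 that reached it in all 4 libraries, 205 were higher and 1 was lower. The like shares for shorter sequences or other classes were not computed, so these 2 counts are not a trait of the long ones. The 1115 had a median log2 difference of 0.77, beside 0.70 for all 11785. TMM factors lowered the median of all sequences by 0.67 and left the long ones at 0.096, so the size of these differences depends on the scaling. The 508 became 150 without IP 1, 113 without IP 2, 55 with TMM factors and 5 with DESeq2.

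Among the most abundant sequences of the single lengths from 30 nt on, L32a alone passed the test. L30a had 942 and 842 RPM in TDRKH IP, against 825 and 719 RPM in input (log2 difference 0.21, adjusted p = 0.381, edgeR). L34a had 506 and 390 RPM in TDRKH IP, against 476 and 459 RPM in input (-0.062, adjusted p = 0.809). L33a had 342 and 347 RPM in TDRKH IP, against 394 and 535 RPM in input, and lay lower in both IPs without passing the test (-0.43, adjusted p = 0.0938).

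L31a and L32a differ by a single 3′ base. L31a had 604 and 555 RPM in TDRKH IP, against 462 and 685 RPM in input (log2 difference 0.013, adjusted p = 0.960, edgeR). L32a had 566 and 485 RPM in TDRKH IP, against 269 and 343 RPM in input, above both inputs in both IPs (log2 difference 0.78 ± 0.23, adjusted p = 0.00453, edgeR). The difference between these 2 changes was not tested. With TMM factors the change of L32a was 0.11, and without IP 1 it was 0.67, and neither passed. L29a had 613 and 466 RPM in TDRKH IP, against 609 and 752 RPM in input (-0.34, adjusted p = 0.181). L35a and L36a differed by -0.056 and -0.11 and did not pass (adjusted p = 0.833 and 0.702).

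The sequences with the largest changes are shown next because 3 of them were long variants that were rare in TDRKH IP, of families that differed far less. The first 4 had the largest positive and the last 4 the largest negative log2 differences among those called by edgeR. All 8 reached the minimum of 10 RPM only in the group where they are high, so they had to differ, and their differences are given as a description with no test. Capitals mark an inverted repeat as before.

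L28e: ttggagaattttgagcattactttgcta
L29c: ttgttctggactaggctttggcttaagga
L30d: tcttggagctgtgagaaatttcttacataa
L32b: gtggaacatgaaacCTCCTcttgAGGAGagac
L29b: ttgttctactttggatggtgtttcactgt
L29d: ttccactgcagggccacaggtttgaacca
L30b: tgggcaaatgtatgaacttcttctgcagtc
L30c: tgcagatgataaatgagattttggggtgtt

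L30c had 0.180 and 0.0904 RPM in TDRKH IP, against 11.1 and 26.6 RPM in input (log2 difference -6.96). Its family, which peaks at 27 nt, had 675 and 567 RPM in TDRKH IP, against 572 and 633 RPM in input, and overlapped. L30b had 0.898 and 0.452 RPM in TDRKH IP, against 33.4 and 27.3 RPM in input (-5.44), while its family had 3141 and 3552 RPM in TDRKH IP, against 3551 and 2915 RPM in input. L29b had 0.269 and 0.542 RPM in TDRKH IP, against 16.7 and 20.7 RPM in input (-5.47). Its family had 968 and 920 RPM in TDRKH IP, against 728 and 774 RPM in input. In these 3 cases the long variant had 1 to 10 reads in each IP library, while its family as a whole was present there at levels near those of input.

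L29d differed in that its whole family was low in TDRKH IP. The sequence had 0.539 and 0.181 RPM in TDRKH IP, against 11.1 and 10.3 RPM in input (log2 difference -4.82). Its family had 21.4 and 23.9 RPM in TDRKH IP, against 282 and 219 RPM in input. Its names carry the note 14T->C.

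The first 4 sequences were high in TDRKH IP together with their families. L32b, which starts with G and has a 5-pair repeat, had 11.3 and 14.7 RPM in TDRKH IP, against 0.926 and 2.22 RPM in input (log2 difference 2.97). Its family had 52.5 and 60.5 RPM in TDRKH IP, against 19.5 and 15.5 RPM in input. L28e, listed for 21 loci, had 11.3 and 11.03 RPM in TDRKH IP, against 1.85 and 1.48 RPM in input (2.75), on 2 reads in each input, and its family had 145 and 165 RPM in TDRKH IP, against 48.2 and 48.7 RPM in input. L30d had 13.2 and 15.6 RPM in TDRKH IP, against 1.85 and 2.22 RPM in input (2.80), and its family had 226 and 229 RPM in TDRKH IP, against 124 and 118 RPM in input. L29c is L28c with an added T at its 5′ end, and had 11.3 and 11.2 RPM in TDRKH IP, against 0 and 2.95 RPM in input (2.77). Its family had 104 and 103 RPM in TDRKH IP, against 51.0 and 53.2 RPM in input. All 4 had fewer than 5 reads in each input.

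The long reads came from 946 of 956 piRNA loci, after overlapping cluster names had been merged. A read assigned to several loci was divided equally among them, which concerned 19.7% and 19.0% of the long reads in TDRKH IP and 18.2% and 18.6% in input. For 18 to 27 nt reads these shares were 25.5% and 24.8% in TDRKH IP and 22.4% and 23.1% in input, higher in 4 of 4 libraries (exact sign-flip permutation p = 0.125, the smallest possible). The 3 loci with the most long reads held 64.7% and 65.0% of them in TDRKH IP, against 68.1% and 67.5% in input.

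The locus chr6:110174004-110336024 alone gave 34.7% and 35.2% of the long reads in TDRKH IP, against 35.8% and 34.2% in input. Its shares of the 18 to 27 nt reads were 33.2% and 33.5% in TDRKH IP and 34.5% and 34.3% in input. The ratio of the 2 shares, averaged over all libraries, was 0.045 ± 0.020 on the log2 scale and did not pass the test (adjusted p = 0.0691, edgeR). The locus chr17:62734026-62887012 gave 17.5% and 17.0% of the long reads in TDRKH IP, against 19.8% and 20.5% in input. It was richer in long reads than in short ones by 0.25 ± 0.023 (adjusted p = 5.76e-06, edgeR), but its reads of 29 to 36 nt gave -0.077. Its excess thus sat at 28 nt, the length of L28b and L28d.

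The locus chr23:13851174-14138004 gave 12.6% and 12.8% of the long reads in TDRKH IP, against 12.5% and 12.8% in input. The locus chr3:90982081-91157012 gave 2.73% and 2.81% in TDRKH IP, against 2.46% and 2.36% in input, and was poorer in long reads by -0.37 (adjusted p = 1.70e-06, edgeR). The locus chr14:4891038-5053723 gave 3.25% and 3.33% in TDRKH IP, against 2.84% and 2.75% in input, with a length contrast of -0.100 (adjusted p = 0.0129) that was lost when either IP or input 2 was left out. The contrasts of the last 2 loci turned to 0.15 and 0.43 with TMM factors, which raised the median of all loci by 0.53.

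Over all 873 loci tested for this length contrast, 167 were richer in long reads (19.1%) and 491 poorer (56.2%). The long share of a locus's own reads ran widely. Over the 154 loci with at least 1000 long reads its median was 13.2% and 12.5% in TDRKH IP and 11.4% and 13.1% in input, and its extremes over all libraries were 0.594% and 68.0%.

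In the loci richest in long reads a few sequences held much of them. The most abundant long sequence is shown for the loci at chr26:17967057-17974590 and chr7:98839489-98844715, with an inverted repeat in capitals. At chr10:17435000-17448813 it was L34a, and at chr7:16085100-16093023 it was L31a. Both of these are shared with other loci and carry the note of a mismatch at each of them.

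chr26 locus: ttcctgccaAGAAGcaaagatCTTCTga
chr7 locus: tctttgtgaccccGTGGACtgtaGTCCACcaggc

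At the chr26 locus 55.0% and 52.2% of the cluster reads were long in TDRKH IP, against 49.2% and 54.8% in input. The length contrast was 3.29 ± 0.046 (adjusted p = 4.28e-11, edgeR), and the 28 nt sequence shown made up 50.2% and 48.0% of its long reads in TDRKH IP and 53.9% and 56.6% in input. At chr7:98839489-98844715 68.0% and 64.0% of the reads were long in TDRKH IP, against 63.1% and 62.3% in input (contrast 3.98 ± 0.060, adjusted p = 4.59e-11). The 34 nt sequence shown was 62.0% and 60.1% of its long reads in TDRKH IP and 58.5% and 60.4% in input. A repeat of 6 pairs was present in 97.2% and 96.8% of the long reads of this locus in TDRKH IP and 93.6% and 94.7% in input. At chr10:17435000-17448813 it was present in 91.9% and 90.6% in TDRKH IP and 95.5% and 94.4% in input (contrast 4.02). At chr7:16085100-16093023 the contrast was 3.16. In these 4 loci the long share did not differ between TDRKH IP and input beyond the threshold (adjusted p = 0.976, 0.739, 0.202 and 0.917 by edgeR).

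The loci poorest in long reads, among those with at least 1000 of them, were at chr2:59556283-59565020 (contrast -2.97), chrX:73404001-73411298 (-2.91), chr23:7898020-8009913 (-2.08) and chr19:63960001-63978019 (-1.70). At the chr2 locus 1.83% and 2.17% of the reads were long in TDRKH IP, against 1.00% and 1.07% in input. At the chrX locus 2.68% and 3.14% were long in TDRKH IP, against 0.594% and 0.932% in input. At the chr19 locus 4.28% and 5.10% were long in TDRKH IP, against 1.92% and 2.94% in input. At the chr23 locus 2.67% and 2.40% were long in TDRKH IP, against 2.81% and 2.69% in input. The long share was thus higher in each IP than in each input at the chr2, chrX and chr19 loci and not at the chr23 locus. In sequences of 1 locus only, the contrast of the chr19 locus turned to 0.73 and that of the chr2 locus was -2.64.

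Between the groups, the long reads of 764 loci were tested: 209 were higher in TDRKH IP and 31 lower, with a median log2 difference of 0.39. Over the 1698 combinations of locus and length range 45.9% were higher and 3.59% lower, and of the 934 loci tested in 18 to 27 nt reads 570 were higher and 30 lower, with a median of 0.37. With TMM factors, which lowered the median of all combinations by 0.37, 10 loci were higher in long reads. The 209 became 111 without IP 1 and 97 without input 1, and the 31 became 13 without IP 1 and 10 without IP 2. The difference of the length contrast between TDRKH IP and input passed the test in 43 of 873 loci (4.93%): 11 were higher in TDRKH IP (1.26%) and 32 lower (3.67%). Without input 1 the counts were 2 and 4, and without input 2 they were 2 and 5.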

How the data were processed

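The deposited files give, per library, read counts of distinct sequences of 18 to 36 nt with the names assigned by the authors' annotation; the counts are raw, as the authors deposited them. The labels name TRIZOL for the RNA, the NEXTflex V3 kit for the libraries and single-end reads of a NextSeq 500. Trimming, mapping settings and genome build were not given in the sources used here. Counts include PCR copies, and the rows holding N (2038 to 2606 a library) were left out.

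The groups were compared with edgeR 4.0.16 (R 4.3.3; quasi-likelihood test, library size the listed reads, Benjamini-Hochberg adjustment, threshold 0.05), over all sequences with at least 10 RPM in 2 libraries, over lengths by class with at least 1000 reads, and over loci. The SE was derived from the change and its test statistic. The length contrast of a locus is its 28 to 36 nt against its 18 to 27 nt reads in the same libraries, each scaled to the total of its range. Shares were compared by exact permutation of the libraries in Python 3.11.15 (numpy 2.4.6, pandas 2.3.3, scipy 1.17.1). The fits were tested on simulated data. The Wilson 95% interval of a share covers counting error only; it is narrow at these depths.

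The sequences and measures described were chosen with earlier results of these data known. Named sequences were the 5 with the most RPM in each group, the most abundant of each length, and the 4 with the largest change in each direction among calls whose IPs both lay on 1 side of the inputs. Named loci were the 5 with the most long reads and the 4 with the largest length contrast in each direction among loci with at least 1000 long reads. A locus's leading sequence, the A ends, the families by first 18 bases and the inverted repeats were added after the sequences had been seen. Alternatives were TMM factors, DESeq2 1.42.0, cluster reads as library size, other filters and lengths, sequences of 1 locus, the replicate block and leaving out each library.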

Additional observations from a re-analysis of the deposited data

Results flagged for a closer look

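The length contrast of a locus, its 28 to 36 nt against its 18 to 27 nt reads, differed between TDRKH IP and input in 43 of 873 loci by edgeR's test of the difference itself. It was higher in TDRKH IP in 11 loci and lower in 32.

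Among the named loci it differed at chrX:73404001-73411298, where the contrast was higher in TDRKH IP by 1.85 (adjusted p = 0.000405). The 18 to 27 nt reads of this locus were 0.258% and 0.232% of all such reads in TDRKH IP, against 0.794% and 0.719% in input, while its long reads were 61.5 and 65.3 RPM in TDRKH IP, against 38.0 and 53.2 RPM in input. The contrast was also higher in TDRKH IP by 0.86 at chr2:59556283-59565020 (adjusted p = 0.0193) and by 0.85 at chr19:63960001-63978019 (adjusted p = 0.0308). At the chr2 locus the 18 to 27 nt reads were 0.406% and 0.373% of all such reads in TDRKH IP, against 0.651% and 0.714% in input. At the chr19 locus they were 0.190% and 0.170% in TDRKH IP, against 0.296% and 0.314% in input. Over these 3 loci the short reads were lower in TDRKH IP, and at the chrX locus the long reads were higher (log2 difference 0.45, adjusted p = 0.0353). The 3 differences kept their sign without input 1 and without input 2 but did not pass then (adjusted p 0.064 to 0.447). The 0.45 was -0.27 in sequences of 1 locus only. The leading long sequences of the 3 loci were each assigned to 50 to 113 loci.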

How the results depend on the processing

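The 4 libraries, the depth of the inputs and the scaling set what can be said. With cluster reads as library size, TMM factors and DESeq2's size factors, the lengths higher in TDRKH IP were 1, 5 and 6, and leaving out a library gave 1 to 3, with 0 to 1 lower. The summed log2 difference was 0.42 with TMM factors, 1.48 with DESeq2's size factors, 0.088 for 30 to 36 nt, and 0.18 to 0.28 with a library left out. By single length, cluster reads as library size gave -0.021 at 30 nt and -0.0052 at 31 nt, DESeq2 0.32, 0.20, 0.20 and 0.19 at 33 to 36 nt, and counting each distinct sequence once 0.065 at 33 nt. Leaving out a library gave -0.17 to 0.085 at 33 nt and -0.36 to 0.035 at 36 nt.

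Of single sequences 55 and 5 were higher with TMM factors and with DESeq2, and 113 to 507 with a library left out. Lower ones numbered 138, 118 and, at 5 RPM, 293, and 74 to 82 with a library left out. TMM factors and DESeq2 turned L28a to -0.62 and -0.60, L28c to -0.10 and -0.075, L30a to -0.48 and -0.46 and L31a to -0.66 and -0.63, and moved the median of all sequences by -0.67 and -0.65. Cluster reads as library size turned L28a to -0.078 and L31a to -0.12. With a library left out L28a ranged from -0.045 to 0.17, L28b from -0.47 to 0.0079, L28d from -0.40 to 0.14, L31a from -0.24 to 0.33, L34a from -0.26 to 0.11, L35a from -0.19 to 0.064 and L36a from -0.29 to 0.11.

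Long reads were higher in 93, 10, 4 and 55 loci with cluster reads, TMM factors, DESeq2 and sequences of 1 locus, and in 97 to 174 with a library left out, with 10 to 26 lower. The length contrast was higher in 282 and lower in 311 loci with TMM factors, 256 and 274 with DESeq2, and lower in 160 in sequences of 1 locus. In those sequences it was -0.045 on chr6:110174004-110336024, -0.065 on chr23:13851174-14138004 and 0.73 on chr19:63960001-63978019, and the long reads of chrX:73404001-73411298 changed by -0.27. At 29 to 36 nt it was -0.077 on chr17:62734026-62887012. TMM factors and DESeq2 gave 0.43 and 0.39 on chr14:4891038-5053723 and 0.15 and 0.12 on chr3:90982081-91157012. The difference of the contrast was higher in 44 loci with TMM factors, 19 in sequences of 1 locus, 3 at 29 to 36 nt and 2 to 19 with a library left out. It was lower in 18 loci with DESeq2, 19 in sequences of 1 locus, 15 at 29 to 36 nt and 4 to 40 with a library left out. The causes were not tested.

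The share with a first T, TDRKH IP minus input, was -6.37 percentage points over distinct sequences, -1.18 over sequences with more than 1 read and -0.29 to 0.45 with a library left out. That with A at position 10 was -2.19 over distinct sequences and -0.37 to 1.21 with a library left out. The reads of shorter forms per long read that had such a form differed by -0.14 at equal depth.

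The replicate numbers were not shown to pair the libraries: the deviations of same-numbered libraries correlated at 0.0852 over 11785 sequences. With the replicate block 446 sequences were higher and 76 lower, and the difference of the contrast was higher in 6 loci and lower in 13. The share of 34 to 36 nt reads with a repeat exceeded that of 24 to 27 nt reads by 75.5 percentage points. It did so by 84.3 at 5 pairs, 76.2 with the whole read searched, 43.9 over distinct sequences and 64.5 without L34a's family. These settings were chosen after seeing the data.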
